A study of Mus musculus with 17 samples.

Results

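The Rhox genes form a cluster of homeobox genes on the mouse X chromosome that is named for its expression in reproductive tissues. Rhox5, Rhox6 and Rhox9 were chosen by gene symbol, with their values over all samples of the study already known. Rhox5 was not analysed here, so 2 of the 3 genes are described, among 28670 genes in the tables. Both passed the filter on low values. Because the choice used these values, the levels and differences of Rhox6, Rhox9 and their sum are descriptions and carry no test. The other 27 Rhox genes were taken by symbol, also with earlier results of these data known. They carry tests where they passed the filter, except where a test of Rhox12 or Rhox2a is withheld below. Their p-values do not allow for that earlier knowledge.

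Rhox proteins are homeodomain factors that bind DNA, and the genes are known from testis, ovary, epididymis and placenta. Rhox6 and Rhox9, also called Psx1 and Psx2, were first described as placental genes and are also known in germ cells. Genes of the cluster are known to be silenced by DNA methylation in the lineages of the embryo proper, and pluripotent cells with less methylation can transcribe them. Nanog is a homeodomain factor of the pluripotent state, and the series asks whether fibroblasts can be reprogrammed without it.

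The study sequenced RNA of 17 mouse cell samples. Batch AC, named by the prefix of the sample codes, is of the strain 129/B6 (v6.5). It holds WT ESC (embryonic stem cells, passage 10 to 15) 1 and 2 and WT iPSC (induced pluripotent stem cells, passage 6) 1. It also holds WT piPSC (partially reprogrammed cells, clone B1, passage 6), Nanog -/- ESC (passage 6) and Nanog -/- iPSC of clones G2 and G5 (passage 6), each with 2 samples. Batch JI is of strain c57/b6 and holds WT ESC 3 and 4 and WT iPSC 2 and 3 (passage 10 to 15 for both), and WT MEF (embryonic fibroblasts, passage 2) 1 and 2. Batch cannot be told apart from strain. The lines WT piPSC, G2 and G5 are 1 clone each, so their samples do not show how clones vary. Per the labels' protocols, Nanog -/- ESC were injected into blastocysts, and the Nanog -/- fibroblasts were sorted by a constitutive GFP from the resulting chimeric embryos. The retroviral factors were Oct4, Sox2, Klf4 and, in some cases, c-Myc, and the labels do not say which line received c-Myc. Colonies were moved onto feeder cells in 2i and LIF, so RNA of feeder fibroblasts can be present. Whether replicates are separate cultures is not stated, so each p-value reflects only how these samples vary, which may be technical.

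Rhox6 (ENSMUSG00000006200) and Rhox9 (ENSMUSG00000068048) are near copies of each other. In the GENCODE vM21 annotation of GRCm38, Rhox6 lies on chromosome X from 37826910 to 37829857 on the plus strand, and Rhox9 from 37899097 to 37901770 on the minus strand. Rhox7a, Rhox8 and Rhox7b lie between them. The submitters' notes name the builds mm10 and NCBIM37 without roles, so these positions are those of the annotation. Their transcripts in that annotation each have 4 exons and 684 coding bases. Their coding sequences align without a gap, with 620 identical bases (90.6%) and 64 that differ, and their longest identical run is 161 bases. The stretch of coding bases 167 to 286, shown because fragments from it cannot be assigned to either gene by sequence, has no differing base. Both genes read:

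Rhox6: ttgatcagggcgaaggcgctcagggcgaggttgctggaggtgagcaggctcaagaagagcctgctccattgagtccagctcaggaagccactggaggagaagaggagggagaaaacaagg

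Rhox9: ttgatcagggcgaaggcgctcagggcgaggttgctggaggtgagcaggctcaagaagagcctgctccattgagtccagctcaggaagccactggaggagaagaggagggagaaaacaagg

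Coding bases 343 to 462 are the stretch of 120 bases with the most differences, 24, and can separate the genes. The differing bases are in capitals:

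Rhox6: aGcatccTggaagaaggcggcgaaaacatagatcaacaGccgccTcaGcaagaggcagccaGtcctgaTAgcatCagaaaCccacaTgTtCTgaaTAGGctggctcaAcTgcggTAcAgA

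Rhox9: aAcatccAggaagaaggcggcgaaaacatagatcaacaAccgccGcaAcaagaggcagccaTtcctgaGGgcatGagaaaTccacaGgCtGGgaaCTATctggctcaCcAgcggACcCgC

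Of all windows of 50 bases in the Rhox6 transcript, 16.5% also occur in a Rhox9 transcript, and 19% of those of Rhox9 occur in Rhox6. Most windows therefore hold a base that tells the copies apart. How the authors' counting split fragments from the shared stretch was not tested, so the sum of both genes is given as well.

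Rhox6 and Rhox9 RNA was highest in the Nanog -/- lines. Levels are in FPKM, which are fragment counts scaled to gene length and library depth. In Nanog -/- ESC, Rhox6 was 74.8 and 77.8 FPKM and Rhox9 was 55.9 and 60.9. In clone G2, Rhox6 was 106 and 104 and Rhox9 was 92.3 and 86.9. Clone G5 had 207 and 177 for Rhox6 and 180 and 151 for Rhox9, so both of its samples stood above all 15 others for each gene. Rhox6 was then the 313th and 429th highest gene of its library.

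WT pluripotent cells had less, by an amount that depended on the batch. WT ESC of batch AC had 3.25 FPKM of Rhox6 in both samples and 2.78 and 4.26 of Rhox9. WT iPSC 1, the only AC sample of its group, had 1.44 and 1.18. In batch JI, Rhox6 was 56.7 and 28.7 in WT ESC 3 and 4 and 25.8 and 27.0 in WT iPSC 2 and 3. The matching Rhox9 values were 43.9, 25, 20.0 and 18.3. Every JI sample of WT ESC and iPSC thus stood above every AC sample of the same groups and below every Nanog -/- sample.

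WT piPSC and MEF were at the bottom. The piPSC samples had 0.426 and 0.508 FPKM of Rhox6, from 12 and 14 fragments, and 0.221 and 0.348 of Rhox9, from 6 and 10. No fragment of either gene was counted in the 2 MEF samples. Zero fragments allow up to 0.343 and 0.151 CPM (fragment counts scaled to library depth) in MEF 1 and 2 (3 fragments per library, counting error only).

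**Figure D1:**
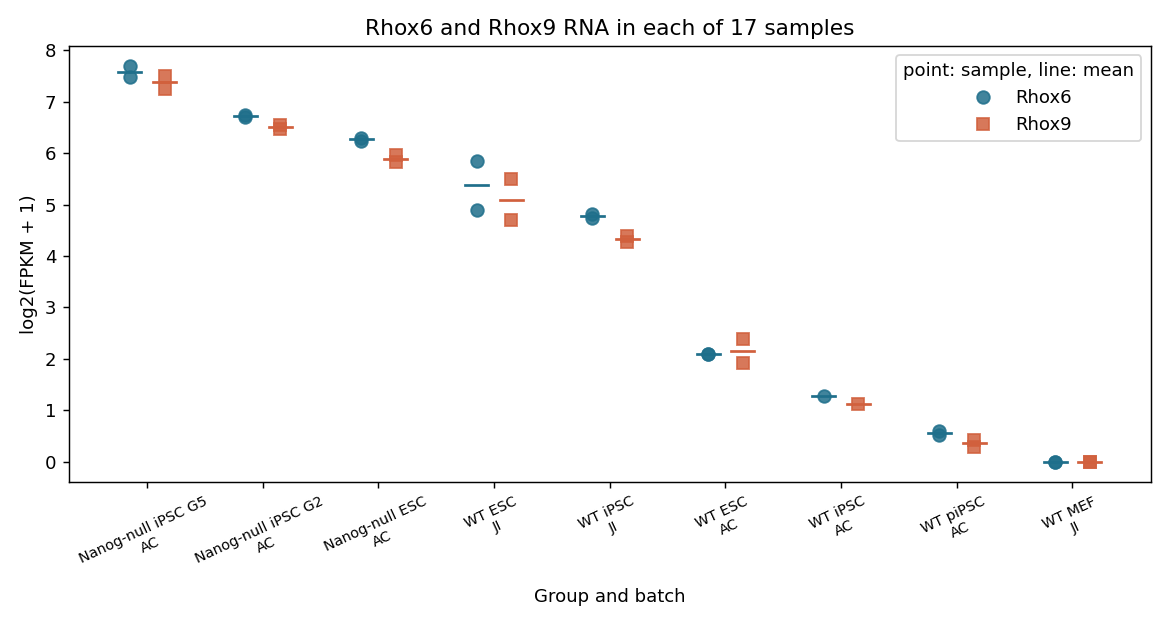
Rhox6 (circles) and Rhox9 (squares) as log2(FPKM + 1) on the y axis for every sample, by group and batch on the x axis, with lines at the means. The Nanog -/- groups are highest, WT ESC and iPSC split by batch, and both MEF samples are at 0.

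As means, Rhox6 ran from 192 ± 21.2 FPKM (SD, n = 2) in G5 to 105 ± 2.00 in G2, 76.3 ± 2.1 in Nanog -/- ESC, 42.7 ± 19.8 in JI WT ESC and 26.4 ± 0.902 in JI WT iPSC (n = 2 each). Below them came AC WT ESC (3.25 ± 0.00613, n = 2), AC WT iPSC (1.44, n = 1), piPSC (0.467 ± 0.0576, n = 2) and MEF. For Rhox6 the SD of the JI WT ESC mean exceeds its gap to JI WT iPSC, so their order is not settled. AC WT iPSC has no SD, and each SD given rests on n = 2, so the other steps are described and not tested. Rhox9 had the same order, from 165 ± 20.5 in G5 through 89.6 ± 3.79 in G2 and 58.4 ± 3.59 in Nanog -/- ESC to 34.4 ± 13.4 in JI WT ESC. For Rhox9 the gap of JI WT ESC to JI WT iPSC (19.14 ± 1.15) exceeded the SD, by little. The sum of both genes was 357 ± 41.6 in G5, 195 ± 5.79 in G2 and 135 ± 5.69 in Nanog -/- ESC. It was 6.77 ± 1.05 in AC WT ESC and 0.751 ± 0.147 in piPSC.

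The proportion of the copies varied little beside their levels. Rhox6 exceeded Rhox9 in FPKM in 14 of the 15 samples with any fragment. WT ESC 2 was the exception. The Rhox6 share of their joint fragments was 54.0% in G5 1 (exact 95% binomial interval 53.0% to 55%, of 9799 fragments). It was 57.3% in Nanog -/- ESC 1 (55.4% to 59.1%, of 2723) and 60.4% in WT iPSC 3 (57.2% to 63.6%, of 912). The interval of G5 1 overlaps neither of the other two, but these samples were picked from the 15 after their values were seen. In the samples with fewest fragments the share could not be placed closely, as in piPSC 1 (66.7%, 41.0% to 86.7%, of 18). Intervals cover counting error only, and not how fragments were assigned between the copies. Over the 17 samples the Pearson correlation of Rhox6 with Rhox9 on log2(FPKM + 1) was 0.998, as a description of genes that may share fragments.

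**Figure D2:**
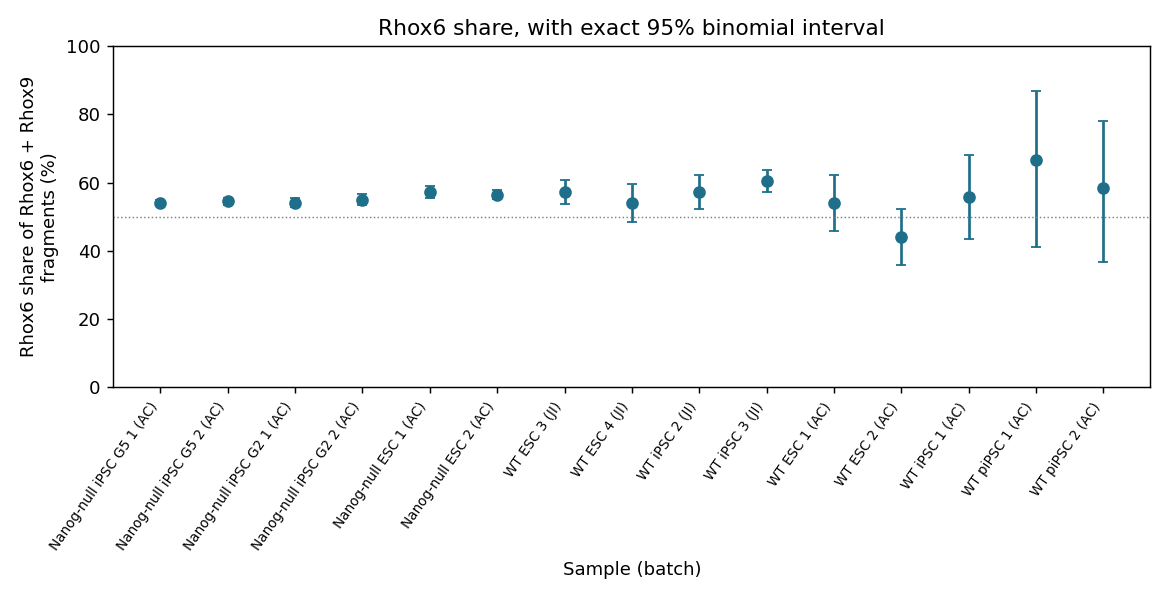
Rhox6 share in percent of the fragments of Rhox6 plus Rhox9 (y axis) for the 15 samples with any (x axis, batch in parentheses), with exact 95% binomial intervals. Shares stay between 44.0% and 66.7%, and the intervals widen where fragments are few.

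Differences are given on the log2(FPKM + 1) scale from limma with a term for batch, ± SE. On it, changes of low genes come out too small. Nanog -/- ESC exceeded WT ESC by 4.23 ± 0.20 for Rhox6, by 3.79 ± 0.20 for Rhox9 and by 4.22 ± 0.21 for the sum. Within batch AC the same differences were 4.18, 3.73 and 4.13. In FPKM the AC means stood 23.5-fold apart for Rhox6 and 16.6-fold for Rhox9, with no overlap of samples. Rhox6 ranked 18th and Rhox9 35th from the top among 15298 genes tested, a rank that the choice of these genes makes a description only. Without the batch term, which then sets both batches of WT ESC against the AC Nanog -/- ESC, the differences were 2.54 for Rhox6 and 2.27 for Rhox9. In the authors' deposited table of group values, which joins both batches, Rhox6 was 76.3 in Nanog -/- ESC and 22.96 in WT ESC, a ratio of 3.32.

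Nanog -/- iPSC, with G2 and G5 weighted equally, exceeded WT iPSC by 5.79 ± 0.20 for Rhox6, 5.70 ± 0.20 for Rhox9 and 6.02 ± 0.20 for the sum. Within AC this rests on the single WT iPSC 1 library, against which the Rhox6 mean was 73.0-fold higher in G2 and 133-fold higher in G5. Leaving that library out gave 5.77 for the sum, through the batch term. With all samples and no batch term the differences were 3.54 for Rhox6, 3.67 for Rhox9 and 3.73 for the sum. Nanog -/- iPSC stood above the Nanog -/- ESC by 0.88 ± 0.19 for Rhox6 and 1.05 ± 0.19 for Rhox9. Clone G2 was below clone G5 by 0.86 ± 0.21 for Rhox6 and 0.87 ± 0.22 for Rhox9, and the G5 means were 1.82-fold and 1.85-fold those of G2.

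WT piPSC differed from WT iPSC by -0.82 ± 0.22 for Rhox6, -0.87 ± 0.23 for Rhox9 and -1.22 ± 0.23 for the sum. All piPSC samples were below all WT iPSC samples. The value depends on the scale and on the batch term: with a pseudocount of 0.1 the Rhox6 and Rhox9 differences were -1.65 and -2.03, and with quantile normalization -0.51 and -0.56. Without the batch term they were -3.06 and -2.90, and -3.51 for the sum. WT iPSC were below WT ESC by 0.68 ± 0.17 for Rhox6 and 0.87 ± 0.17 for Rhox9, with within-batch differences of -0.80 and -1.03 in AC (1 WT iPSC) and -0.59 and -0.76 in JI. Leaving out WT ESC 3 gave -0.46 for Rhox6. Without the batch term little of this difference remained: -0.12 for Rhox6, -0.36 for Rhox9 and -0.27 for the sum. For MEF against JI WT ESC, Rhox6 was at least 82.7-fold lower, Rhox9 at least 65.2-fold and the sum at least 148-fold, with MEF set to the higher of its 2 library floors.

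Between batches, JI exceeded AC by 3.37 ± 0.18 for Rhox6 and 3.05 ± 0.19 for Rhox9 (log2, same model terms). Here the SE is from each gene's own spread alone. The term rests on WT ESC and WT iPSC, the only groups in both batches. JI WT ESC had 13.1 times the mean Rhox6 FPKM of AC WT ESC. On fragments divided by the library total, which leaves out the authors' scaling, the ratio was 8.91 for Rhox6 and 6.61 for Rhox9. Libraries held 7795960 to 43501951 fragments. Ribosomal protein genes took 19.4% to 26.3% of fragments in JI WT ESC and iPSC and 3.65% to 9.70% elsewhere, and FPKM summed to 1084756 or more in the former and at most 667351 in the latter. The part of these depth and composition differences in the batch difference was not tested. Nanog itself, the targeted gene, was 27.2 to 49.5 FPKM in the Nanog -/- samples and 270 to 762 in WT ESC and iPSC. Fragments of a whole gene do not check the deleted part.

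**Figure D3:**
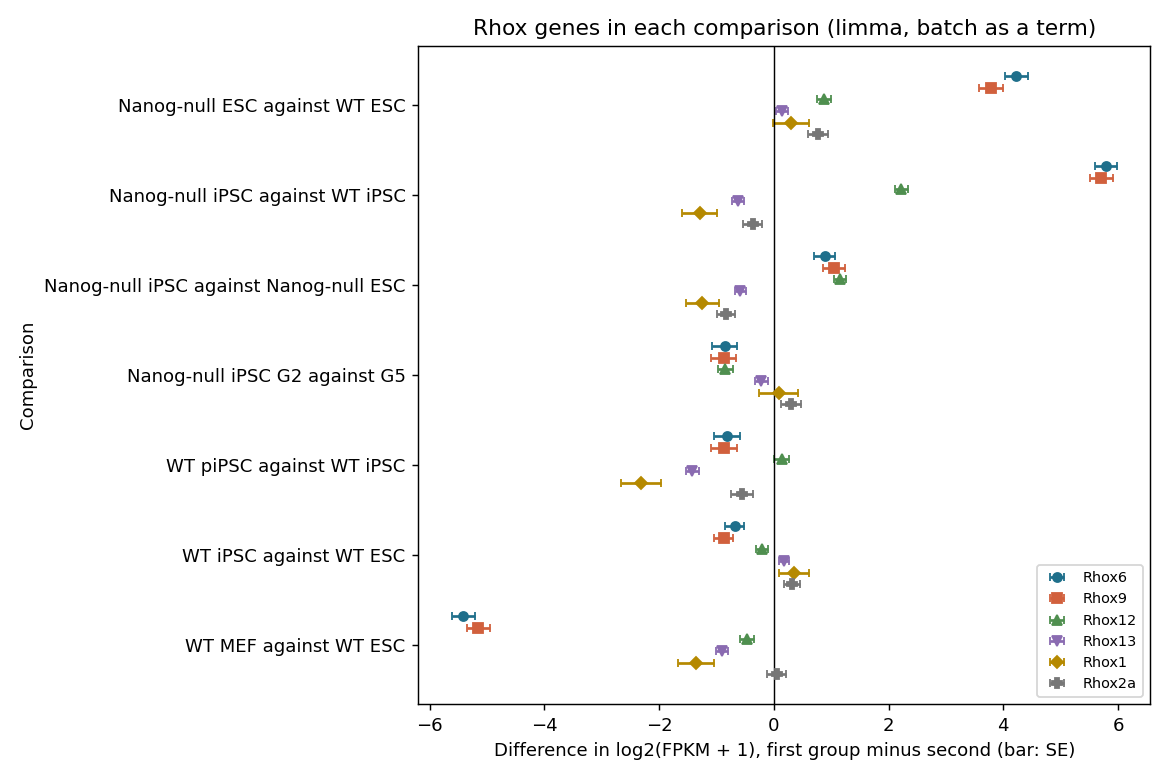
Differences in log2(FPKM + 1) with SE bars (x axis) of 6 Rhox genes in each of the 7 comparisons (y axis). Rhox6 and Rhox9 are far to the right in both comparisons of Nanog -/- with WT cells and far to the left in MEF, and of the other Rhox genes only Rhox12 lies to their side of 0 in both Nanog -/- comparisons.

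The other Rhox genes in the tables were far lower. Of these 27 Rhox genes, 23 were below 1 FPKM in every sample, the highest of them at 0.646, and 27 were listed at 0 in both MEF samples. Rhox8, which lies between Rhox6 and Rhox9, reached 0.104 FPKM at most, and the gene listed as Rhox7 reached 0.115. The 4 that reached 1 FPKM in any sample were Rhox1, Rhox2a, Rhox12 and Rhox13, and these are also the 4 that passed the filter. They passed through the groups where they are high, so they do not describe the cluster. Rhox5, beside Rhox6, was not analysed here, and many of the others are near-identical copies whose fragments may be split.

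**Figure D4:**
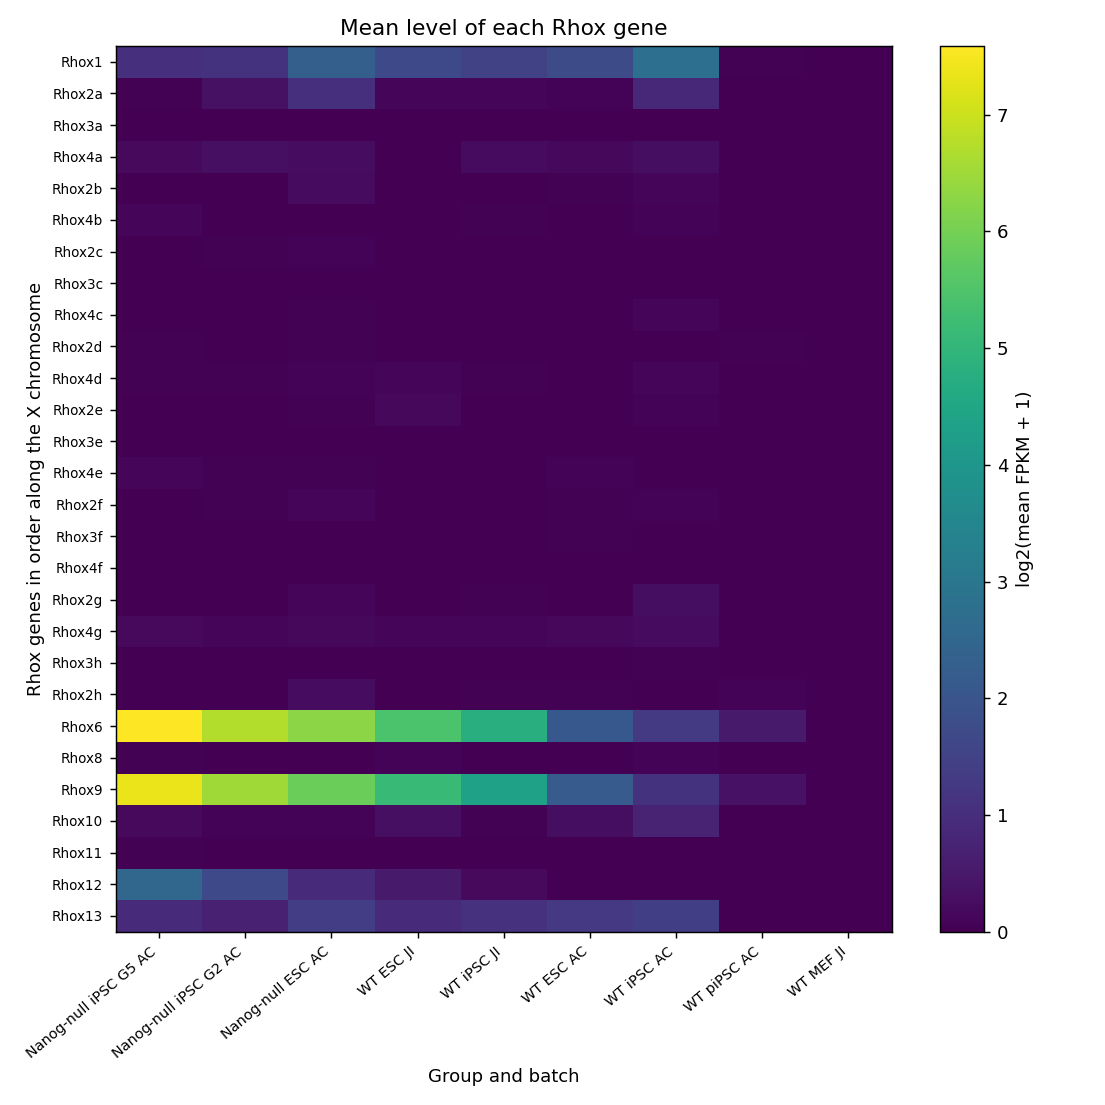
Mean level, as log2(mean FPKM + 1) in colour, of 28 of the 29 Rhox genes in the tables (rows, in order along the X chromosome) in each group and batch (columns). Rhox6 and Rhox9 stand out, Rhox8 between them is dark, and Rhox12 is visible mainly in the Nanog -/- groups.

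Rhox12 was higher in Nanog -/- than in WT samples, at far lower levels than Rhox6 and Rhox9. It was 1.03 and 0.807 FPKM in Nanog -/- ESC, 2.14 and 2.23 in G2 and 5.22 and 4.23 in G5. It was listed at 0 in all 5 WT samples of batch AC, and JI WT ESC and iPSC had 0.0550 to 0.547 FPKM from 1 or 2 fragments each. Rhox12 passed the filter on low values only through the Nanog -/- samples, so its differences from WT, 0.87 ± 0.12 in ESC and 2.23 ± 0.12 in iPSC, are descriptions with no test. With the AC WT libraries set to their floor, Rhox12 was at least 4.43-fold higher in Nanog -/- ESC, at least 17.2-fold in G2 and at least 37.0-fold in G5. The difference of Nanog -/- iPSC from Nanog -/- ESC was 1.15 ± 0.11, given without a test for the same reason. It was lower in G2 than in G5 (-0.84 ± 0.13, limma adjusted p = 0.00210), a call that was lost with a pseudocount of 0.1 (limma adjusted p = 0.227), in DESeq2 (adjusted p = 0.149) and without the batch term (limma adjusted p = 0.0932). The order of the Nanog -/- groups for Rhox12 was that of Rhox6 and Rhox9.

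Rhox13, a gene of male germ cells, and Rhox1 did not follow. Rhox13 was 1.58 to 1.66 FPKM in Nanog -/- ESC and 1.28 and 1.47 in AC WT ESC (difference 0.14 ± 0.10, limma adjusted p = 0.261). In the 4 Nanog -/- iPSC samples it was 0.533 to 0.920, lower than in WT iPSC (-0.62 ± 0.10, limma adjusted p = 1.98e-04). Rhox1 was 3.96 and 3.86 in Nanog -/- ESC and 2.57 and 2.27 in AC WT ESC, with JI WT ESC at 3.47 and 0.982 (difference 0.30 ± 0.32, limma adjusted p = 0.449). In Nanog -/- iPSC it was 0.843 to 1.47, lower than in WT iPSC (-1.29 ± 0.31, limma adjusted p = 0.00317). WT iPSC 1 had the highest Rhox1 value of all samples, 5.90, and without it the difference was -0.63 (limma adjusted p = 0.170).

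Rhox2a belongs to a set of near-identical copies, and its fragments may be split among them. It was 1.03 and 1.01 FPKM in Nanog -/- ESC, 0.119 and 0 in AC WT ESC and 0.836 in WT iPSC 1. Only the Nanog -/- ESC samples reached 1 FPKM and took Rhox2a through the filter, so its differences of 0.77 ± 0.17 (Nanog -/- ESC against WT ESC) and -0.83 ± 0.16 (Nanog -/- iPSC against Nanog -/- ESC) are given with no test. Between WT piPSC and WT iPSC, Rhox1 (-2.31 ± 0.35), Rhox13 (-1.42 ± 0.12) and Rhox2a (-0.55 ± 0.19) fell, with limma adjusted p of 7.53e-05, 2.39e-07 and 0.0219. Rhox13 was listed at 0 in both piPSC samples and was at least 13-fold lower there than in WT iPSC 1. The Rhox2a call rested on WT iPSC 1 (adjusted p = 0.733 without it). It was also lost without either piPSC sample (0.0710 without the first and 0.0718 without the second) with the replicate block (0.0514) and without the batch term (0.140).

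From Nanog -/- ESC to Nanog -/- iPSC, Rhox1 (-1.24) and Rhox13 (-0.59) fell (limma adjusted p = 0.0151 and 0.00165). The Rhox1 call was lost without either Nanog -/- ESC sample (limma adjusted p = 0.135 and 0.117), G2 1 (0.0539) or G5 1 (0.0510), and without the batch term (0.158). The Rhox13 call was lost without the batch term (limma adjusted p = 0.0769). In MEF against WT ESC, Rhox13 (-0.91) and Rhox1 (-1.35) fell (limma adjusted p = 2.81e-06 and 0.00153). The Rhox1 call was lost with the replicate block (limma adjusted p = 0.0523). The Rhox12 difference (-0.47, and -0.27 without the batch term) is given with no test. WT ESC 3 and 4 had 2 and 1 Rhox12 fragments (0.157 and 0.128 CPM). MEF 1 and 2 had 0, which allows up to 0.343 and 0.151 CPM, so a fall of Rhox12 cannot be told from none.

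These calls stand against many calls over all 15298 genes, so a call is common in most comparisons. In Nanog -/- ESC against WT ESC, 27.4% of all genes rose and 26.4% fell, and in Nanog -/- iPSC against WT iPSC 28.7% did so in each direction. The shares were 6.19% and 4.62% from Nanog -/- ESC to Nanog -/- iPSC, and 3.14% and 2.22% for G2 against G5. They were 30.5% and 34.2% for piPSC against WT iPSC, and 38.8% and 41.3% for MEF against WT ESC. In WT iPSC against WT ESC they were 0.641% and 0.379%, and limma called none of Rhox1, Rhox2a, Rhox12 and Rhox13 there (lowest adjusted p = 0.236).

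The promoter of Rhox12, shown because this gene had the order of Rhox6 and Rhox9 among the Nanog -/- groups, is not rich in CG, the pair of bases at which mammalian DNA is methylated. In RefSeq (GRCm38.p6) the window from 250 bases before to 50 bases after its start lies at chrX:38110858-38111157 on the minus strand. It holds 3 CG (capitals, the same on both strands), and 76.7% of 32851 windows of that length hold at least as many. The median window holds 7.

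Rhox12: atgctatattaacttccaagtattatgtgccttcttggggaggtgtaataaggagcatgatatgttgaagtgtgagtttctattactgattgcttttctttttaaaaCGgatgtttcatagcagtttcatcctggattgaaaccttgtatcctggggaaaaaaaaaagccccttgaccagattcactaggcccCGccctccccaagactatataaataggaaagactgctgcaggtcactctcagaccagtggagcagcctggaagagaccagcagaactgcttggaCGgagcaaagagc

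The corresponding Rhox13 window holds 5 CG and that of Rhox1 holds 0. No methylation was measured.

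Germline genes known to be silenced by promoter methylation did not rise with Rhox6 and Rhox9. Of 21 tested, 0 rose and 13 fell in Nanog -/- ESC against WT ESC (27.4% and 26.4% of all genes; median -1.04, all genes -0.01). In Nanog -/- iPSC 2 rose, Mael and Taf7l (named after their values were seen), and 15 fell (28.7% of all genes each way; median -0.77, all genes -0.02). Dazl, an RNA-binding protein of germ cells, fell from 25.9 ± 1.51 FPKM in AC WT ESC to 2.48 ± 0.0356 in Nanog -/- ESC (-3.20, limma adjusted p = 3.52e-07), and JI WT ESC had 5.77 ± 0.245. The Dazl call was lost without the batch term (limma adjusted p = 0.0927). In piPSC 20 of 21 fell and 1, Piwil2 (also named after its value was seen), rose (34.2% and 30.5% of all genes; median -2.83, all genes -0.06), among them Rpl10l (-6.26) and Tex19.1 (-5.12). In piPSC the Rhox genes and these germline genes were low together.

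Among 20 genes of DNA and H3K9 methylation, 9 rose and 5 fell in Nanog -/- ESC (27.4% and 26.4% of all genes; median 0.21), so the share that fell is near that of all genes. For Nanog -/- iPSC 8 rose and 8 fell (28.7% of all genes each way; median -0.07). Dnmt3l, a cofactor of the de novo methyltransferases, was 130 ± 0.221 FPKM in Nanog -/- ESC and 2.87 ± 0.480 in AC WT ESC (4.64, limma adjusted p = 1.22e-06). JI WT ESC had more Dnmt3l, 230 ± 49.5, than the Nanog -/- cells, so the difference holds within batch AC and not across batches. Dnmt3b, one of those enzymes, was 61.4 ± 0.727 and 3.38 ± 0.632 (3.46, limma adjusted p = 3.64e-06), with JI WT ESC at 9.48 ± 0.0887. Hells, a chromatin remodeller needed for methylation, fell (-1.28, limma adjusted p = 1.17e-04). Without the batch term the Dnmt3l and Hells calls were lost in ESC (2.15 and -0.54), and the sign of Dnmt3l turned in iPSC (1.57 to -1.76). Dnmt1, the maintenance enzyme, named after its values were seen, was 52.2 ± 1.38 in Nanog -/- ESC and 59.4 ± 1.73 in AC WT ESC (limma adjusted p = 0.191).

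Trophoblast and placenta genes moved to the same side as Rhox6 and Rhox9 in the Nanog -/- lines. Of 17 tested, 13 rose and 2 fell in Nanog -/- ESC (27.4% and 26.4% of all genes; median 2.01, all genes -0.01). In Nanog -/- iPSC 13 rose and 1 fell (28.7% of all genes each way; median 1.72, all genes -0.02). Of the 21 listed, 15 were at 1 FPKM or more in both Nanog -/- ESC samples and 6 in both AC WT ESC samples. The filter can thus let in genes through the Nanog -/- samples, which favours a rise. The counts and p-values of this list do not allow for that. Plac1, a placental membrane protein, was 22.8 ± 3.58 FPKM in Nanog -/- ESC and 0.0954 ± 0.135 in AC WT ESC (4.24, limma adjusted p = 1.33e-08). Gata2, a trophoblast and blood transcription factor, was 29.9 ± 2.02 and 0.755 ± 0.0840 (4.16, limma adjusted p = 9.73e-11). Ascl2, needed for the spongiotrophoblast, also rose (4.07, limma adjusted p = 7.19e-09). Eomes, a trophoblast stem cell factor, fell in both (-0.92 and -0.57), and Ets2 fell in ESC (-0.37). Both were named after their values were seen. The 6 defining trophoblast markers (Cdx2, Eomes, Elf5, Gata3, Hand1, Tpbpa) summed to only 8.70 to 12.5 FPKM in the Nanog -/- samples, against 2.63 to 4.53 in WT ESC and iPSC. Tpbpa, of the spongiotrophoblast, was listed at 0 in Nanog -/- ESC and in all WT groups. By batch, the 6 markers summed to 3.53 to 4.53 in JI WT ESC and to 3.54 to 4.27 in AC WT ESC.

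Markers of other cell types moved with the Nanog -/- groups as well. The 13 primitive and visceral endoderm genes tested rose in both comparisons (27.4% and 28.7% of all genes). Of the 14 listed, 13 were at 1 FPKM or more in both Nanog -/- ESC samples and 5 in both AC WT ESC samples. Here too the filter favours a rise, and the counts and p-values do not allow for that. The 7 defining markers summed to 61.4 to 94.2 FPKM in Nanog -/- samples and 4.01 to 16.8 in WT ESC and iPSC. The same markers summed to 88.6 to 89.9 in MEF, within the range of the Nanog -/- samples. Among the list genes Col4a1, a basement membrane collagen, and Gata6, an endoderm factor, rose by 5.00 and 3.92 in Nanog -/- ESC (limma adjusted p = 1.03e-09 and 7.70e-11). In MEF against WT ESC they rose by 5.85 and 1.57 (limma adjusted p = 2.15e-11 and 1.83e-08). Of 10 fibroblast and feeder genes, 9 rose in Nanog -/- ESC and 8 in Nanog -/- iPSC (27.4% and 28.7% of all genes; medians 1.98 and 1.63), and 0 fell. Their sum was 749 to 1582 FPKM in Nanog -/- samples, 144 to 486 in WT ESC and iPSC and 7553 to 7575 in MEF. Among the Nanog -/- iPSC clones it was 749 to 772 in G5 and 1484 to 1582 in G2. The 6 pluripotency markers summed to 2485 to 4421 FPKM in Nanog -/- samples and 5661 to 19856 in WT ESC and iPSC. Germ cell markers (Dazl, Ddx4, Sycp3, Nanos3) summed to 12.6 to 21.6 in Nanog -/- samples and 62.7 to 76.5 in WT ESC and iPSC. The part of other cell types in the Rhox levels was not tested, and fewer cells of a type and less RNA per cell cannot be told apart in these samples.

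Genes beside the cluster on the X chromosome moved in both directions. Of 14 tested, 2 rose and 7 fell in Nanog -/- ESC (27.4% and 26.4% of all genes; median -0.31). For Nanog -/- iPSC 3 rose and 7 fell (28.7% of all genes each way; median -0.29). Sept6, a septin, fell in both (-1.24 and -1.65, limma adjusted p = 5.75e-06 and 2.71e-07), and Lamp2, a lysosomal membrane protein, rose in iPSC (1.51, limma adjusted p = 2.24e-07). Among X-linked germline and tumour antigen genes, 5 of 9 tested rose and 1 fell in Nanog -/- ESC (27.4% and 26.4% of all genes; median 0.93), and 1 rose and 2 fell in Nanog -/- iPSC (28.7% each way; median 0.01). In piPSC 0 rose and 5 fell (30.5% and 34.2% of all genes; median -0.81), with Trap1a at 0.939 ± 0.134 FPKM and 133 in WT iPSC 1. Xist, the RNA that coats an inactive X chromosome, was 314 and 320 FPKM in piPSC and at most 39.9 elsewhere. The part of Xist in the low piPSC values was not tested. Genes of the Y chromosome differed between lines as well. Ddx3y was 0.0198 and 0.0135 FPKM in piPSC, 22.6 and 22.98 in Nanog -/- ESC and 1.11 to 2.08 in G2 and G5. It was 4.21 and 3.67 in AC WT ESC and 0.873 in WT iPSC 1. In MEF, Ddx3y was 21.5 and 21.6, close to Nanog -/- ESC. Eif2s3y and Uty, also Y-linked, were likewise lowest in piPSC and highest in Nanog -/- ESC. Kdm5d, the remaining Y-linked gene of the list, was 0 in piPSC but highest in MEF (3.28 and 3.92). It was 0.271 and 0.485 in Nanog -/- ESC. Whether the lines differ in sex chromosome content was not tested, nor was its part in the Rhox differences.

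Among remaining lists, 6 of 9 primordial germ cell genes fell in Nanog -/- ESC and 3 in Nanog -/- iPSC (26.4% and 28.7% of all genes; medians -0.85 and -0.33), none rising, with Prdm14 lowest in ESC (-2.59). Of 5 linker histones, Hist1h1c rose and H1fx fell in both, a share each way near or below that of all genes (medians 0.13 and -0.54). Of 4 candidate upstream factors tested, 1 rose and 2 fell in Nanog -/- ESC (27.4% and 26.4% of all genes; median -0.49). For Nanog -/- iPSC 1 rose and 1 fell (28.7% of all genes each way; median -0.28). The shares that rose are thus near those of all genes. Gata1 rose in both (0.74 and 1.34) and Gabpa fell in both (-0.78 and -0.63). Nr5a2 fell in ESC (-0.78). Without the batch term, Nr5a2 in ESC (0.21) and Gabpa in iPSC (0.054) changed sign. The calls of Gabpa and H1fx in ESC and of Hist1h1c in iPSC were also lost without it.

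The genes whose levels were most like those of Rhox6 were named by the Pearson correlation of log2(FPKM + 1) over 17 samples, which share groups, batches and scaling. Outside the cluster these were 1600014K23Rik (0.99), Prss8 (0.98), Sct (0.97), 3830417A13Rik (0.96) and Wnt7b (0.96). Sct encodes the hormone secretin, Prss8 a membrane protease and Wnt7b a Wnt ligand. For Rhox9 the first 4 were the same and Ninj2 (0.96) came next. Sct was 98.7 FPKM in G5, 52.9 in G2, 15.3 in Nanog -/- ESC, 11.5 in JI WT ESC, 2.37 in AC WT ESC, 0.0474 in piPSC and 0 in MEF, the order of Rhox6. 1600014K23Rik was 14.7 in G5, 4.16 in JI WT ESC and 0.495 in AC WT ESC and was listed at 0 in piPSC and MEF. Over the 17 samples 85 genes exceeded 0.9 with Rhox6. Over the 11 AC samples 1051 did, so a high value there picks out little. There the first 5 for Rhox6 were Krt18, Cstb, Krt8, Mbnl3 and Snx2, and for Rhox9 Krt18, Cstb, Mbnl3, Ctsl and Krt8. Krt18 and Krt8 encode the keratin pair of simple epithelia. Krt18 was 725 FPKM in G5, 195 in Nanog -/- ESC and 6.85 in AC WT ESC, but 50.2 in MEF, where Rhox6 was at 0.

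**Figure D5:**
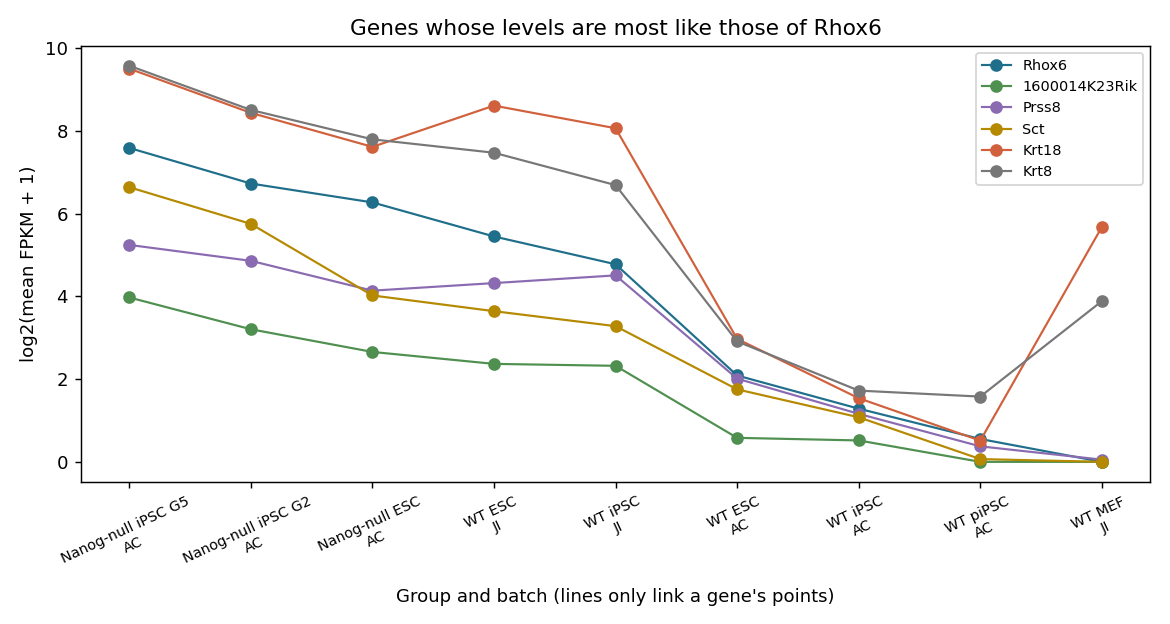
Mean level as log2(mean FPKM + 1) (y axis) of Rhox6 and 5 genes with like patterns, by group and batch (x axis). 1600014K23Rik, Prss8 and Sct fall with Rhox6 to about 0 in MEF, whereas Krt18 and Krt8 are higher in MEF than in piPSC.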

How the data were processed

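RNA-seq of 17 mouse samples in 7 groups was analysed from the authors' deposited tables. Per the file headers, each sample table gives estimated counts of fragments and FPKM computed by the authors for 28670 genes. Tools in the submitters' processing notes are Cuffdiff 2.1.1, Bowtie2 2.0.5, TopHat2 2.0.7 and CASAVA. A deposited table of group FPKM was used where named. Rhox6, Rhox9 and all 12 gene lists were chosen with earlier results of these data known, and 180 of their 182 distinct genes were matched. From each list at most 3 members with the largest called changes per comparison were named (exceptions are stated), and every Rhox gene with at least 1 FPKM in a sample.

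The main test was limma 3.58.1 in R 4.3.3 on log2(FPKM + 1), with terms for group and batch and 9 residual degrees of freedom. It covered 15298 genes that reached an FPKM of 1 in 2 or more samples, leaving out 19 with a failed status. P-values were adjusted by Benjamini-Hochberg over all of them, threshold 0.05. Alternatives used edgeR 4.0.16 and DESeq2 1.42.0 on estimated counts rounded to whole numbers, other pseudocounts, filters, scalings and batch settings, and each sample left out. The scripts were tested on simulated data. Depth was 7795960 to 43501951 fragments per sample.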

Additional observations from a re-analysis of the deposited data

Results flagged for a closer look

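The difference between Nanog -/- and WT cells was called as unlike in iPSC and ESC for Rhox1 and Rhox13. This is by limma's interaction term on log2(FPKM + 1), adjusted over all genes. The iPSC difference less the ESC difference was -1.59 ± 0.39 for Rhox1 (limma adjusted p = 0.0213) and -0.76 ± 0.13 for Rhox13 (limma adjusted p = 0.00260). For Rhox12 it was 1.35 ± 0.15, both differences being positive (2.23 and 0.87), and for Rhox2a -1.14 ± 0.21. These last 2 values are given with no test. Rhox1, Rhox13 and Rhox2a were positive in ESC (0.30, 0.14 and 0.77) and negative in iPSC (-1.29, -0.62 and -0.37). In batch AC the WT side of the iPSC difference is 1 library, WT iPSC 1, which had 5.90 FPKM of Rhox1 and 0.836 of Rhox2a. Without this library the Rhox1 difference in iPSC was -0.63 and was not called (limma adjusted p = 0.170). The interaction was not rerun without it. Rhox12 and Rhox2a passed the filter on low values only through Nanog -/- samples, so their interaction values are descriptions.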

How the results depend on the processing

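Rhox6, Rhox9 and their sum kept their direction in each of the 7 comparisons under every alternative run. Of 166 list gene calls rerun without the batch term, 102 held, 61 were lost and 3 changed direction. Those 3 were Nr5a2 in Nanog -/- ESC (0.21), and Dnmt3l (-1.76) and Gabpa (0.054) in Nanog -/- iPSC. No other setting changed the direction of such a call. Counts of genes called moved by over 1.5 times as follows.

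With a mean FPKM of at least 5, fewer genes were tested, and the counts were 5407 (Nanog -/- ESC against WT ESC), 5833 (Nanog -/- iPSC against WT iPSC), 884 (Nanog -/- iPSC against ESC), 438 (G2 against G5), 6276 (piPSC against WT iPSC) and 8040 (MEF against WT ESC). Without the batch term they were 4888 (Nanog -/- ESC against WT ESC), 274 (Nanog -/- iPSC against ESC), 126 (G2 against G5) and 0 (WT iPSC against WT ESC). DESeq2 called 2875 (Nanog -/- iPSC against ESC), 1446 (G2 against G5) and 1729 (WT iPSC against WT ESC), and edgeR 1319 in the last. Batch AC alone gave 4519, 2783 and 6077 for those 3 comparisons, and batch JI alone 1 for WT iPSC against WT ESC. A pseudocount of 0.1 gave 449 for G2 against G5 and 64 for WT iPSC against WT ESC. The cause was not tested.

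Leaving out each sample gave 6028 to 9331 calls for Nanog -/- ESC against WT ESC (8228 with all), 7946 to 9594 for Nanog -/- iPSC against WT iPSC (8778), 514 to 2764 for Nanog -/- iPSC against ESC (1654) and 224 to 1487 for G2 against G5 (820). It gave 8339 to 10686 for piPSC against WT iPSC (9896), 11 to 2675 for WT iPSC against WT ESC (156, lowest without WT ESC 2 and highest without WT ESC 3) and 11117 to 12446 for MEF against WT ESC (12254). Counts for Nanog -/- iPSC against ESC moved by over 1.5 times without WT iPSC 1 (2764), WT ESC 4 (2597), Nanog -/- ESC 1 (514) or 2 (526), G2 1 (1071) or 2 (1081), and G5 1 (1022). For G2 against G5 they did so without WT iPSC 1 (1487), WT ESC 4 (1373), G2 1 (324) or 2 (224), and G5 1 (251) or 2 (292). For WT iPSC against WT ESC they were 2675 and 1811 without WT ESC 3 or 4, and 11 to 87 without WT ESC 1 or 2, WT iPSC 2, or any piPSC, MEF or Nanog -/- sample.

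Replicate numbers did not pair the samples: of 15 pairs of groups, 1 had a correlation of deviations over 0.1. The replicate block gave 1017 calls for WT iPSC against WT ESC. Rhox12 in WT samples and Rhox6 and Rhox9 in piPSC rest on few fragments.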
